A study of Rattus norvegicus with 10 samples.

Results

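A set of 6 antioxidant genes, among them classical targets of the transcription factor NRF2, was followed in whole rat kidney after water restriction. They were chosen by Ensembl gene identifier and chromosome: Gclc, Hmox1, Nqo1, Sod1, Sod2 and Cat, 6 of the 32623 genes in the count table. All 6 lay on the named chromosome, had counts in every library and passed the filter on low counts. The groups were male Sprague-Dawley rats, an outbred strain, with free access to water (control, n = 5) and rats kept without water for 72 hours, or 3 days (dehydrated, n = 5). Whole kidney from each animal gave 1 library of polyadenylated RNA, and neither the rats' age nor their food intake is stated in the labels.

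NRF2 is held at a low level in the cytosol by KEAP1, which marks it for degradation. Oxidants and electrophiles modify KEAP1, and NRF2 then enters the nucleus and binds antioxidant response elements in the control regions of its targets. Gclc, Hmox1 and Nqo1 are widely used as readouts of this pathway. Sod1, Sod2 and Cat encode the enzymes that remove superoxide and hydrogen peroxide; they are expressed in most cells and answer to several regulators besides NRF2. Renal tubules, above all the proximal tubule, consume much oxygen and hold large amounts of glutathione and catalase. The tables used here pair no Ensembl identifier with a symbol. Other genes of the pathway, such as those of NRF2 and KEAP1 themselves, and markers of kidney cell types were therefore not analysed here.

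The sequence around the start of each gene was taken from RefSeq (assembly GRCr8), as the 250 bases before and the 50 bases after the start. The table of these sequences held 5 of the 6 genes, all but Hmox1. The core of the antioxidant response element, TGACNNNGC, was searched on both strands, and no other motif was searched. It was found in 1 of the 5 windows, that of Sod2, and in 12.1% of all 33469 windows of 300 bases. The match in Sod2 starts 35 bases before the gene's start and reads GCAGGGTCA, the core on the opposite strand. A match is only a description of letters, and elements can lie outside this window. The windows of Nqo1 and Sod2 are shown because Nqo1 was the only gene of the 6 with a higher mean in dehydrated kidneys and Sod2 the only one with a match, given in capitals.
Nqo1 (GRCr8, chr19:52220218-52220517, minus strand): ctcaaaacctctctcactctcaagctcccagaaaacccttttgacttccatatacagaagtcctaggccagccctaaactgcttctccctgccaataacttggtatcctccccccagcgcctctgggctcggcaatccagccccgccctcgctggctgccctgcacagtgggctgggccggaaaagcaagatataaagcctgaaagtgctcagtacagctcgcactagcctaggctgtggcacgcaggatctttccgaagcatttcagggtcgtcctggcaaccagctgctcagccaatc
Sod2 (GRCr8, chr1:50050119-50050418, minus strand): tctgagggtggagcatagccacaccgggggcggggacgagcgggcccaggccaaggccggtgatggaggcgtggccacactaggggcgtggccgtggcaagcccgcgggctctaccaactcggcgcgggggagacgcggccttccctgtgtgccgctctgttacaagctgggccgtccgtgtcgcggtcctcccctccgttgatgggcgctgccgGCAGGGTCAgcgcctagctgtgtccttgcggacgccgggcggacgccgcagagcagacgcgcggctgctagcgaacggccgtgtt

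The libraries held 29454213 to 35898689 assigned fragments each. In their names, the 2 libraries numbered 6 have each other's group letter. Groups were taken from the titles, and a DESeq2 fit with the titled groups matched the log2 fold changes of all 15284 genes in the authors' deposited table within 1e-06. With the 2 libraries exchanged, 0 of these genes matched. The match shows which groups the authors used, and cannot show whether the titles or the letters are right. No gene on chromosomes 20, X, Y or MT had a count, nor any of the 300 genes that follow position 39670909 on chromosome 19. Hmox1 and Nqo1 both lie on chromosome 19 before that position, Nqo1 by 1.23 Mb. Of the 28 genes from Nqo1 to the last one with counts, 27 had counts.

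None of the 6 genes passed the test for a difference between dehydrated and control kidneys. The test was edgeR's quasi-likelihood test over 15047 genes at a threshold of 0.05 after Benjamini-Hochberg adjustment, which called 8.47% of all tested genes. At that share fewer than 1 of 6 genes would be called, so the count of 0 does not set these genes apart. At an unadjusted p below 0.05 there were 3 of the 6, against 21.4% of all tested genes: Nqo1 with a higher mean, and Hmox1 and Sod1 with lower means in dehydrated kidneys. At an adjusted p below 0.1, which 12.2% of tested genes reached, Hmox1 alone would be called. DESeq2 (background 10.7%) and limma voom (8.24%) also called 0 of the 6. By CPM, no gene of the 6 had groups that did not overlap, which 7.87% of tested genes had. TPM are counts per exonic length, relative to their total over all genes with counts. As TPM, the groups did not overlap for Sod1, at 1944 to 2135 in control and 1577 to 1922 in dehydrated kidneys. The share of all genes without overlap was not computed for TPM. The log2 fold change, dehydrated over control, was above 0 for 1 gene and below 0 for 5, with a median of -0.08 against 0.00 over all tested genes. However, Nqo1 passed the test in a fit without control replicate 5, its highest control (edgeR adjusted p = 0.042). Hmox1 passed it in a fit of 8 libraries with the replicate number as a block, but the numbers are not shown to pair the animals.

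**Figure D1:**
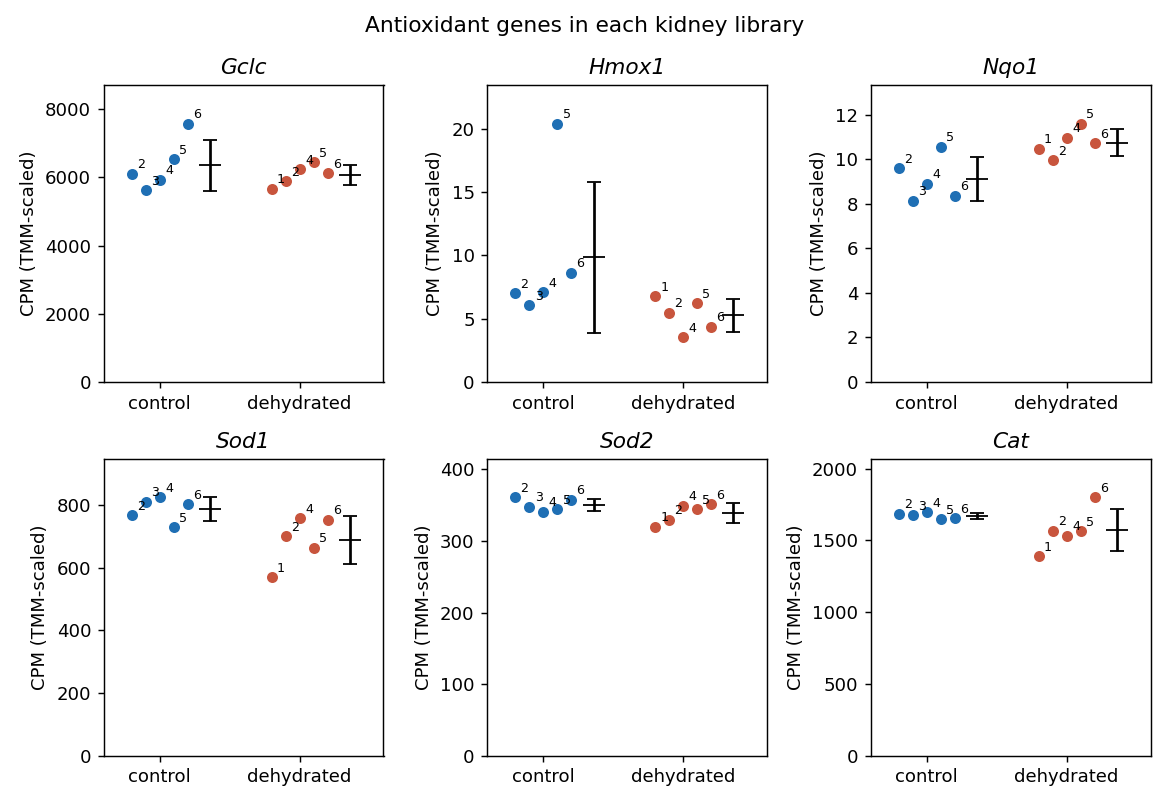
Abundance of the 6 genes in each library, as TMM-scaled CPM (fragment counts relative to the scaled total of the library; linear axes from 0), with numbers giving the replicate and black bars the mean and SD of 5 kidneys. The Hmox1 value of control replicate 5 (20.4 CPM) stands above the other 9, and in every panel the 2 groups overlap.

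**Figure D2:**
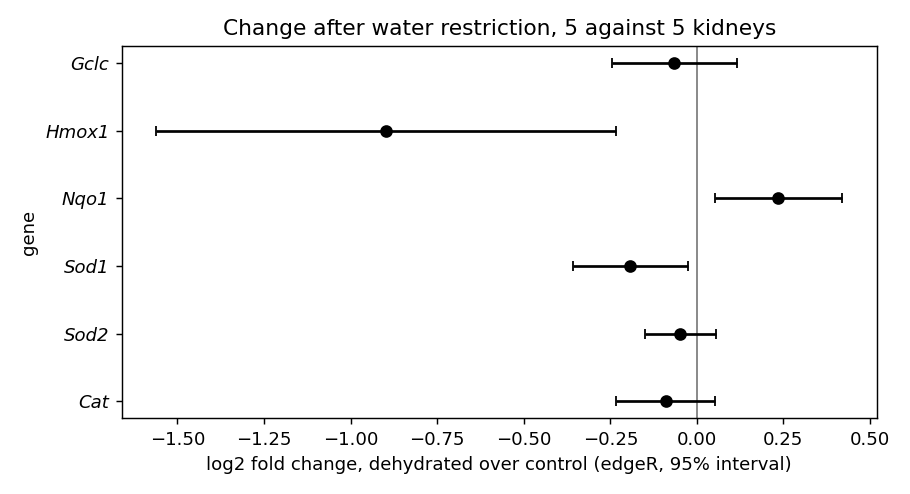
Log2 fold change of each gene, dehydrated over control, from edgeR, with its 95% interval (5 kidneys per group). The intervals of Hmox1, Nqo1 and Sod1 leave out 0 before adjustment for 15047 tests, and none of the 6 genes passed after it.

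The levels of the 6 genes in the kidney spanned more than 2 orders of magnitude. Per exonic length (FPKM, the CPM divided by the gene's exonic length in kb), Gclc was highest with a mean of 2040 ± 185, then Sod1 with 1124 ± 118 and Cat with 639 ± 44.1. Sod2 followed with 167 ± 5.94 FPKM, Nqo1 with 6.29 ± 0.73 and Hmox1 with 4.83 ± 3.03 (SD, n = 10 libraries of both groups). Gclc thus ranked 15 and Sod1 ranked 37 among the 15047 tested genes, while Nqo1 and Hmox1 lay below the median gene (8.73 FPKM). In this order the library values of neighbouring genes did not overlap, except for Nqo1 and Hmox1, where Nqo1 was higher in 8 of 10 libraries. The 3 classical NRF2 targets therefore held both the highest and the lowest levels of the 6.

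Glutathione synthesis was represented by Gclc, the catalytic subunit of glutamate-cysteine ligase, which carries out the rate-limiting step. The gene (ENSRNOG00000006302) lies on chromosome 8, 85059051 to 85097468, plus strand, with 16 annotated exon ranges in Rnor_6.0. It took 0.621% of the fragments and ranked 6 of all tested genes by CPM. In control replicates 2 to 6 it measured 6102, 5617, 5936, 6525 and 7575 CPM. In dehydrated replicates 1, 2, 4, 5 and 6 it measured 5662, 5886, 6235, 6441 and 6129 CPM. All 5 dehydrated kidneys lay within the control range, and control replicate 6 was the highest library. The means were 6351 ± 759 CPM in control and 6070 ± 303 CPM in dehydrated kidneys (± SD, n = 5). On the log2 scale the edgeR difference, dehydrated over control, was -0.07 (SE 0.08, adjusted p = 0.741). The 95% interval ran from 0.843 to 1.08 times the control level. Without control replicate 6 the sign turned, to a log2 fold change of 0.0052 (edgeR adjusted p = 0.981).

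Haem degradation was represented by Hmox1, the inducible haem oxygenase, which splits haem into biliverdin, carbon monoxide and iron and is known in the kidney for its induction by haem and injury. Hmox1 (ENSRNOG00000014117) lies on chromosome 19, 14508616 to 14515456, plus strand, with 5 exon ranges. It measured 7.02, 6.04, 7.09, 20.4 and 8.64 CPM in control replicates 2 to 6, on 186 to 711 counts. In dehydrated replicates 1, 2, 4, 5 and 6 it measured 6.76, 5.48, 3.53, 6.21 and 4.37 CPM, on 105 to 238 counts. By CPM, 4 controls lay above every dehydrated kidney, and 3 dehydrated kidneys lay below every control. Dehydrated replicates 1 and 5 lay above control replicate 3. As TPM the overlap was larger: dehydrated replicate 1 had 7.85, above control replicates 2, 3 and 4 with 7.61, 6.31 and 7.70. The means were 9.84 ± 5.99 CPM in control and 5.27 ± 1.32 CPM in dehydrated kidneys (± SD, n = 5). On the log2 scale the edgeR difference, dehydrated over control, was -0.90 (SE 0.31, adjusted p = 0.098). On the ratio scale dehydrated kidneys had 0.537 times the control level, with a 95% interval from 0.339 to 0.850.

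The Hmox1 difference rested to a large part on 1 control kidney. Control replicate 5 had 2.36 times the value of the next control, while the other 4 controls averaged 7.20 ± 1.07 CPM (SD). Without it the edgeR difference was -0.44 on the log2 scale (SE 0.17, adjusted p = 0.144), or 0.736 times the control level, with the same direction. Leaving out any other library gave -1.03 to -0.79. A value at least 2 times the highest of the other 9 libraries was found in control replicate 5 for 5 of the 12550 genes that averaged 2 CPM or more, Hmox1 among them. In the other libraries 0 to 2 genes stood apart in this way. Among the 6 genes the within-group coefficient of variation was highest for Hmox1, at 46.5%, above that of 98.0% of tested genes.

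**Figure D3:**
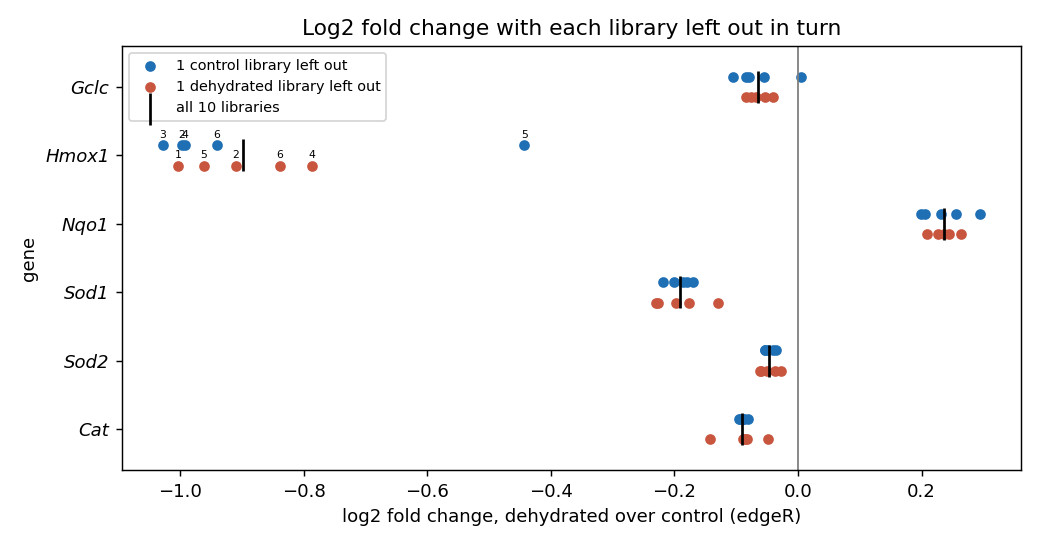
Log2 fold change of each gene from edgeR with 1 library left out at a time (blue, a control library; red, a dehydrated library; numbers over the Hmox1 points give the replicate) and with all 10 libraries (black bars). Hmox1 moves from -0.90 to -0.44 without control replicate 5, and Gclc alone reaches the other side of 0, without control replicate 6.

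Quinone reduction was represented by Nqo1, which reduces quinones in a single step by a pair of electrons and so avoids reactive semiquinones. Nqo1 (ENSRNOG00000012772) lies on chromosome 19, 38422164 to 38437180, plus strand, with 6 exon ranges. It measured 9.61, 8.15, 8.91, 10.6 and 8.37 CPM in control replicates 2 to 6, and 10.5, 9.96, 10.97, 11.6 and 10.7 CPM in dehydrated replicates 1, 2, 4, 5 and 6. The control with the highest value was again replicate 5, and it exceeded 2 dehydrated kidneys; the other 4 controls lay below all 5 dehydrated kidneys. The means were 9.12 ± 0.99 CPM in control and 10.8 ± 0.61 CPM in dehydrated kidneys (± SD, n = 5). On the log2 scale the edgeR difference, dehydrated over control, was 0.24 (SE 0.09, adjusted p = 0.119). The 95% interval ran from 1.04 to 1.34 times the control level. Without control replicate 5 the difference passed the test, at 0.29 on the log2 scale (SE 0.08, edgeR adjusted p = 0.042) or 1.23-fold. In that fit 9.14% of all tested genes were called. Control replicate 5 was the highest control, so leaving it out favours this outcome. Leaving out any other library gave 0.20 to 0.26 on the log2 scale (edgeR adjusted p from 0.125 to 0.243). The counts behind these values were low, 244 to 426 per library.

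The cytosolic superoxide dismutase Sod1, which converts superoxide to hydrogen peroxide, had a lower mean in dehydrated kidneys. Sod1 (ENSRNOG00000002115) lies on chromosome 11, 30363280 to 30368862, plus strand, with 5 exon ranges. Its values were 767, 810, 824, 729 and 802 CPM in control replicates 2 to 6. They were 569, 700, 757, 664 and 754 CPM in dehydrated replicates 1, 2, 4, 5 and 6. By CPM, 4 controls lay above every dehydrated kidney, and control replicate 5 lay below dehydrated replicates 4 and 6. As TPM, all 5 controls lay above every dehydrated kidney. The means were 787 ± 38.5 CPM in control and 689 ± 77.5 CPM in dehydrated kidneys (± SD, n = 5). On the log2 scale the edgeR difference, dehydrated over control, was -0.19 (SE 0.08, adjusted p = 0.161). The 95% interval ran from 0.781 to 0.982 times the control level. Dehydrated replicate 1 was the lowest, and without it the log2 fold change was -0.13 (edgeR adjusted p = 0.256).

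Sod2, the manganese superoxide dismutase of mitochondria, had the smallest spread of the 6 genes. Sod2 (ENSRNOG00000019048) lies on chromosome 1, 47914759 to 47921587, minus strand, with 5 exon ranges in Rnor_6.0. Controls ranged from 341 to 361 CPM and dehydrated kidneys from 320 to 352 CPM, with dehydrated replicates 1 and 2 below every control. As TPM, dehydrated replicate 1 had 282, above control replicates 3 and 4 with 276 and 281. The means were 350 ± 8.63 CPM in control and 339 ± 13.6 CPM in dehydrated kidneys (± SD, n = 5). On the log2 scale the edgeR difference, dehydrated over control, was -0.05 (SE 0.05, adjusted p = 0.653). With a within-group coefficient of variation of 3.32%, lower than that of all but 1.46% of tested genes, its interval was narrow, from 0.901 to 1.04 times the control level. Set beside each other per length, Sod1 was 7.07 ± 0.41 times as abundant as Sod2 in control and 6.38 ± 0.53 times in dehydrated kidneys (SD, n = 5; 6.66 to 7.61 and 5.59 to 6.82). The ranges of this ratio overlapped, and it was not tested.

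Catalase (Cat), the peroxisomal enzyme that breaks hydrogen peroxide down to water and oxygen, had a small range by CPM in control kidneys. Cat (ENSRNOG00000008364) lies on chromosome 3, 93379874 to 93412058, minus strand, with 13 exon ranges. Controls ranged from 1646 to 1696 CPM, and dehydrated replicates 1, 2, 4, 5 and 6 had 1391, 1568, 1533, 1564 and 1799 CPM. Thus 4 dehydrated kidneys lay below every control and 1, replicate 6, above every control. The means were 1672 ± 20.9 CPM in control and 1571 ± 146 CPM in dehydrated kidneys (± SD, n = 5). On the log2 scale the edgeR difference, dehydrated over control, was -0.09 (SE 0.07, adjusted p = 0.495). The 95% interval ran from 0.851 to 1.04 times the control level. Without dehydrated replicate 6, one of the libraries with the other group's letter, the edgeR difference was -0.14 on the log2 scale (SE 0.06, adjusted p = 0.178). The coefficient of variation was 1.25% in control and 9.32% in dehydrated kidneys, a difference in spread that was not tested. In whole kidney, fewer cells that express a gene and less RNA per cell cannot be told apart.

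The authors' deposited table likewise gave no adjusted p below 0.05 for any of the 6 genes, while 10.9% of its 15284 genes had one. The adjusted p in the authors' deposited table was 0.0878 for Nqo1, 0.107 for Hmox1 and 0.116 for Sod1. For Cat, Sod2 and Gclc the authors' deposited table gave 0.473, 0.627 and 0.739.

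The genes did not vary together from animal to animal as 1 group. After the group mean was subtracted from log2 CPM, Pearson's r over the 10 kidneys was above 0 for 11 of the 15 pairs of genes and below 0 for 4. A single pair passed a permutation within groups with adjustment over 15 pairs: kidneys with more Hmox1 had less Sod1. Its Pearson's r was -0.66 (two-sided permutation p = 0.0026, adjusted p = 0.039) and its Spearman's rho -0.75 (permutation p = 0.012, adjusted p = 0.177), so the rank correlation did not pass the adjustment. Without control replicate 5 and dehydrated replicate 1, the libraries farthest from the median of the centred Hmox1 values, r was -0.74. The Nqo1 and Hmox1 pair had r = 0.59 (permutation p = 0.148, adjusted p = 0.37; rho = 0.33, permutation p = 0.407, adjusted p = 0.582). Without control replicate 5 and dehydrated replicate 1 its r was 0.061, so the relation rested on those libraries. Sod1 and Cat had r = 0.73 (permutation p = 0.156, adjusted p = 0.37; rho = 0.47, permutation p = 0.234, adjusted p = 0.582) and r = 0.37 without control replicate 5 and dehydrated replicate 1. Gclc and Nqo1 had r = 0.18 (permutation p = 0.722, adjusted p = 0.773) and rho = 0.42 (permutation p = 0.304, adjusted p = 0.582). Their r rose to 0.86 without control replicates 3 and 6, the libraries farthest from the median of the centred Gclc values. That was the highest r of the 15 pairs after such a removal, and it was not tested. By CPM, dehydrated replicate 1 was the lowest kidney of its group in Sod1, Sod2, Cat and Gclc. As TPM it was the lowest in Sod1 and Cat only. Its TPM of 282 for Sod2 and 3382 for Gclc lay within the range of the group's other kidneys.

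**Figure D4:**
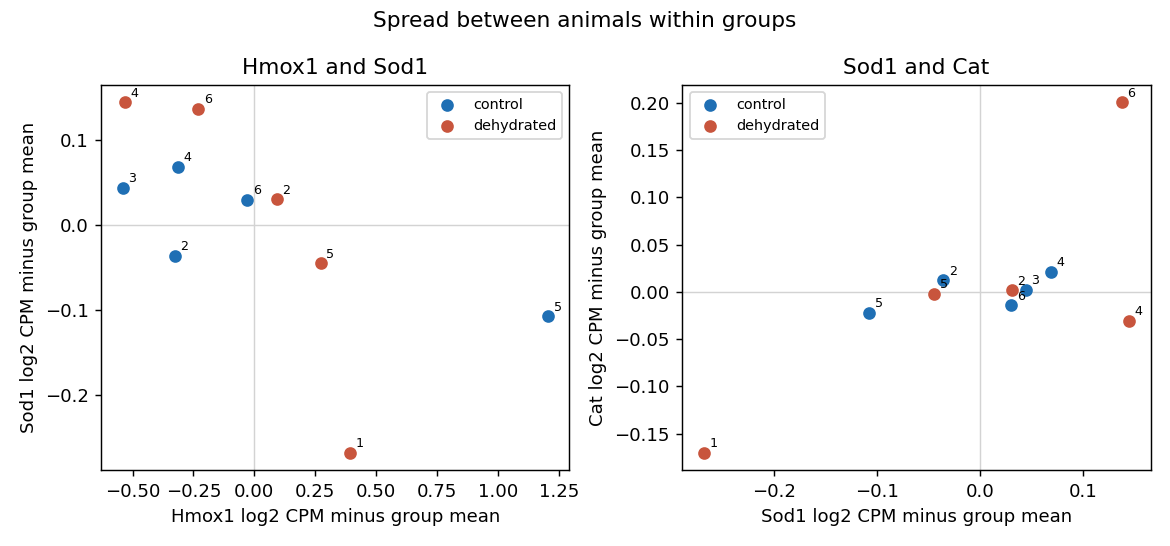
Log2 CPM of Hmox1 against Sod1 (left) and of Sod1 against Cat (right) in each kidney after subtraction of its group's mean, with the replicate number beside each point. Kidneys with more Hmox1 had less Sod1 (r = -0.66), and in the Sod1 and Cat panel dehydrated replicates 1 and 6 lie at opposite ends of Cat.

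Among 12549 genes that averaged 2 CPM or more, the gene most like each of Hmox1 and Nqo1 was sought by Pearson's r over the same group-centred values, a description with no test, since the highest of many is taken. For Hmox1 it was ENSRNOG00000015279 (chromosome 2, 203200427 to 203276142, plus strand), with r = 0.94, and 0.96 without control replicate 5 and dehydrated replicate 1. Control replicate 5 was its highest control, with 2.33 CPM against 1.51 CPM for the next, which a choice by correlation with Hmox1 favours. Unlike Hmox1, this gene had a higher mean in dehydrated kidneys, with 3.04 ± 0.80 CPM against 1.39 ± 0.58 CPM in control (SD, n = 5). The edgeR log2 fold change was 1.13 (SE 0.26). Its control mean was below the limit of 2 CPM, which it passed only through its dehydrated values. The difference is therefore not independent of that limit and is given without a p-value. These levels are low, down to 0.84 CPM in control. For Nqo1 it was ENSRNOG00000018336 (chromosome 1, 214328071 to 214353461, plus strand), with r = 0.96, and 0.90 without control replicates 3 and 5. This gene measured 228 ± 22.8 CPM in control and 236 ± 7.32 CPM in dehydrated kidneys (SD, n = 5; log2 fold change 0.05, edgeR adjusted p = 0.748).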

How the data were processed

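Polyadenylated RNA of whole kidney was measured in 10 libraries. The authors deposited raw fragment counts per gene, made with featureCounts 1.6.2 on paired reads with reverse-strand setting 2 and the Ensembl release 103 annotation of Rnor_6.0, per the file headers. Neither the file headers nor the labels state the aligner version or the trimming. The authors' log2 fold changes, with p-values, come from DESeq2, per the submitters' processing notes. The 10 columns of normalised values per library in that table were not used. Symbols of the 6 genes came with the gene list. RefSeq places all 6 on the same chromosomes.

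Counts were tested with edgeR 4.0.16 in R 4.3.3 (TMM; filterByExpr, minimum count 10, minimum total 15; no covariate), fitted to 15047 of 21311 genes with any count. The SE was derived from the log2 fold change and the F statistic (size over root F), and 95% intervals use its t distribution. CPM are TMM-scaled, with factors of 0.966 to 1.03. FPKM divides CPM by exonic length in kb. For correlations, log2 CPM (prior count 2) were centred by group and permuted 100000 times within groups. The edgeR fit and the correlation were checked on simulated data. With 5 animals a group, their spread limits the precision. Alternatives were DESeq2 1.42.0, limma 3.58.1 voom, other scaling and filter, a looser threshold, left-out and exchanged libraries, a replicate block, and TPM. All 6 genes are named. For Hmox1 and Nqo1 the tested gene with the highest correlation is also named. The members and lists were chosen with earlier results of these data known. The planned lists of other antioxidant genes and cell type markers could not be used, since 0 identifiers are paired with a symbol.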

Additional observations from a re-analysis of the deposited data

Results flagged for a closer look

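Hmox1 measured 20.4 CPM in control replicate 5, while the other 4 controls had 6.04 to 8.64 CPM. Its gap to the next control was large against the range of the 5 controls. The values of the 6 genes in 2 groups made 12 such sets of 5. No other set had a gap of this kind, which chance gives in about 1 of 20 sets.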

How the results depend on the processing

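Hmox1, Nqo1, Sod1, Sod2 and Cat kept their sign in every fit run, the exchange included. Gclc ranged from -0.11 to 0.0052 with 1 library left out, turning positive without control replicate 6, and was 0.00043 without both libraries numbered 6 and 0.069 with them exchanged; the cause was not tested. The 6 genes gave 0 calls, but 0 to 1 with 1 library left out (Nqo1, without control replicate 5), 1 at an adjusted p below 0.1 (Hmox1, against 12.2% of all genes) and 1 with a replicate block (Hmox1, log2 fold change -1.03, adjusted p = 0.017). The block was fitted to the 8 libraries of the 4 replicate numbers that both groups share, without control replicate 3, the lowest control in Hmox1, and dehydrated replicate 1, the highest dehydrated kidney. On the same 8 libraries without a block, a fit added after the data were seen, Hmox1 was at -1.13 (adjusted p = 0.072), 0 of the 6 genes were called and 881 genes in all (491 higher, 390 lower). Over the fits that keep the titled groups the adjusted p ranged from 0.017 to 0.207 for Hmox1 and from 0.042 to 0.315 for Nqo1. Same-numbered libraries correlated at -0.055 to 0.14. Only those numbered 5 (0.14) were each other's closest match among the shared numbers, so the numbers were not taken as pairs. Over all genes the 1275 calls (707 higher, 568 lower) became 772 of 15063 (431, 341) with these 8 libraries and the block, and 0 (0, 0) with the libraries numbered 6 exchanged, where 1654 had an unadjusted p below 0.05. Without both these libraries 461 were higher. With 1 library left out 879 to 1382 were called, 485 to 763 higher and 378 to 619 lower. The fewest in all and higher came without dehydrated replicate 2, the fewest lower without control replicate 4. As TPM over all genes with counts, mean levels were 3450 for Gclc, 1898 for Sod1, 1079 for Cat, 283 for Sod2, 10.7 for Nqo1 and 8.23 for Hmox1, in the same order.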
